A study of Mus musculus with 2 samples.

Results

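Serpins of clade A are secreted by hepatocytes in large amounts. The 10 genes described here were taken by their symbols from the 31053 genes of the deposited tables, by a list of names and with no threshold on their values: the 5 Serpina1 copies (Serpina1a, Serpina1b, Serpina1c, Serpina1d and Serpina1e), Serpina3k, Serpina3m, Serpina3n, Serpina6 and Serpina7. All 10 were found. They were followed in 2 single-cell RNA libraries of liver from C57BL/6 mice, 1 library from animals fed chow and 1 from animals fed a NASH diet (non-alcoholic steatohepatitis diet, rich in fructose, fat and cholesterol), each for 6.5 weeks. The protocols in the labels describe collagenase digestion of the liver and recovery on Percoll, a density medium, of both non-parenchymal cells and hepatocytes of varied density. The sources used here do not give the number, sex or age of the mice, or say whether animals were pooled. With 1 library per diet there was no replicate of a diet, so no difference between diets carries a test, and every interval printed covers counting error only.

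Inhibitory serpins work as bait. A protease cuts an exposed loop near the end of the protein, the loop inserts into the body of the serpin, and the protease is left bound and distorted. Alpha1-antitrypsin, the product of a single gene in humans and of several copies in the mouse, is the main plasma inhibitor of neutrophil elastase. Serpina3n, a mouse relative of human alpha1-antichymotrypsin, is known as an acute phase protein that inhibits proteases of neutrophils and cytotoxic lymphocytes, and Serpina3k is an abundant hepatic Serpina3 gene. Serpina6 encodes corticosteroid-binding globulin and Serpina7 encodes thyroxine-binding globulin; both share the serpin fold but carry hormones in plasma and do not inhibit proteases.

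In the GENCODE M21 annotation of GRCm38, matched by gene ID, 9 of the 10 genes lie on chromosome 12. Serpina6 (103646630 to 103657212), Serpina1b (103728156 to 103830373), Serpina1d (103763594 to 103773592), Serpina1a (103853589 to 103863562), Serpina1c (103894926 to 103904887) and Serpina1e (103946931 to 103958975) are on the minus strand. Serpina3k (104338486 to 104346144), Serpina3m (104338486 to 104394257) and Serpina3n (104406729 to 104414329) are on the plus strand. Serpina7 is on the minus strand of chromosome X (139079257 to 139085236). The annotated span of Serpina1b encloses Serpina1d, and a Serpina3m transcript begins at the Serpina3k start.

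The 5 Serpina1 copies are close to identical in coding sequence, and they differ more in the loop that the protease cuts than outside it. Over the 1239 coding bases of GENCODE transcripts, the 10 pairs of copies were 96.3% to 98.5% identical. In the 63 bases that follow the start of the conserved hinge of the reactive loop (codons 361 to 381), identity was 87.3% to 93.7%, and it was below that of the remaining coding sequence in 10 of 10 pairs. The stretches are shown because these bases separate the copies both as inhibitors and as sequencing targets. Capitals mark the 13 bases that are not the same in all 5 copies.
Serpina1a: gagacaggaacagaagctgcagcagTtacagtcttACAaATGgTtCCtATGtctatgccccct
Serpina1b: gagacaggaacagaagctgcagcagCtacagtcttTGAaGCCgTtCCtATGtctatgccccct
Serpina1c: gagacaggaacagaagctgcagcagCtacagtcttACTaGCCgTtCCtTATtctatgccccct
Serpina1d: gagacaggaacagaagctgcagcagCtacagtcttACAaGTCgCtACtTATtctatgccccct
Serpina1e: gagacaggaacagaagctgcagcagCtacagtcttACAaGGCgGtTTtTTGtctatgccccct

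The same 63 bases of the Serpina3 members are shown for comparison (codons 367 to 387 of Serpina3k and 365 to 385 of Serpina3m and Serpina3n). Capitals mark the 25 bases that are not the same in all 3 genes.
Serpina3k: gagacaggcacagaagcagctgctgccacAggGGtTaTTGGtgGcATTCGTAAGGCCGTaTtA
Serpina3m: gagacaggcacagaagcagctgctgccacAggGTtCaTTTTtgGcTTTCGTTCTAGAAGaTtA
Serpina3n: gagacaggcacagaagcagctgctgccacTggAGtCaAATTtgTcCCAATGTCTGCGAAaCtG

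How far reads can tell the copies apart was examined in the last 500 bases of a transcript of each gene, the end that a 3' library samples. A 90-base stretch there was counted as unique when no transcript of another Serpina gene held it exactly. All 411 such stretches were unique for Serpina1e, Serpina3k, Serpina3m, Serpina3n, Serpina6 and Serpina7. The share was 96.4% for Serpina1b, 92.5% for Serpina1d, 89.5% for Serpina1a and 85.6% for Serpina1c. The largest overlap was between Serpina1a and Serpina1c, with 10.5% of stretches in common. Separate values of Serpina1a, Serpina1b, Serpina1c and Serpina1d are therefore less certain than that of Serpina1e, and the sum over the family is given beside them.

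The promoters of the copies were compared as well, since the copies did not move together between diets. RefSeq windows of GRCm38.p6, 250 bases before to 50 after a start, were at hand for 7 of the 10 genes. In the best ungapped alignment of the bases before the start, the 10 pairs of Serpina1 windows were 58.3% (Serpina1b and Serpina1d) to 95.5% identical. Serpina1b was at most 73.2% identical to any other copy. The bases compared numbered 188 to 249 by pair and gaps were not allowed, so the pairs are not directly comparable. Serpina1c and Serpina1d were 95.5% and 94.7% identical to Serpina1e but 75.3% to each other. The low values therefore do not measure how far 2 promoters have diverged. Serpina1c and Serpina1e, the leading copies of the 2 libraries, share an ungapped stretch of 199 bases upstream of both RefSeq starts that is 95.5% identical, with 9 differing bases in capitals. It lies at chr12:103904951-103905149 for Serpina1c and chr12:103956949-103957147 for Serpina1e, minus strand, and overlaps 0 annotated exons; for Serpina1e it falls inside the longer GENCODE span of the gene.
Serpina1c: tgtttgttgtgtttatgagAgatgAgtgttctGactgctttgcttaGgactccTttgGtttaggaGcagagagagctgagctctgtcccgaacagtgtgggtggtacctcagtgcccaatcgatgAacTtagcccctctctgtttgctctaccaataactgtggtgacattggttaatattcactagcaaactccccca
Serpina1e: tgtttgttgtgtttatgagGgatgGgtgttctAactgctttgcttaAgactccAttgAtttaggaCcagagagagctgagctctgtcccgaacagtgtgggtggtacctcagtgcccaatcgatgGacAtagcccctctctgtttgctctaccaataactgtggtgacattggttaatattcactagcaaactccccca
Searched on both strands, the letters TTNNGCAAT, a C/EBP-type site, were found in the windows of Serpina1a and Serpina7, against 2.18% of 32851 windows of all genes. The letters TTCNNNGAA, a STAT-type site, were found in 0 of the 7 member windows and in 8.30% of all windows. No match of one motif overlapped a match of another. A match describes the letters of these windows and nothing more.

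The chow library held 7359 barcodes with 71635757 UMIs and the NASH library 5881 barcodes with 39440182 UMIs. A UMI (unique molecular identifier) marks 1 captured RNA molecule. Clustering without the 10 members left 2092 hepatocyte-like cells in chow and 1138 in the NASH library, with medians of 23560 and 19751 UMIs and of 18.0% and 23.1% mitochondrial UMIs per cell. Most hepatocytes of the libraries fell into different clusters, numbers 0, 1, 3, 5 and 7 in chow and 6, 11, 12 and 14 in the NASH library. Cluster 14 also held 17 chow cells, cluster 18 held 7 chow and 8 NASH diet cells, and the other clusters held at most 9 cells of the second library. Levels are given as CPM, the UMIs of a gene in every 1000000 UMIs of the hepatocyte-like cells of a library, a count of molecules that does not scale with transcript length. Diet differences are log2 ratios, NASH diet over chow, after 5 CPM was added to both values. Over the 10614 genes with at least 50 UMIs, the median log2 ratio was 0.09. The libraries shared 69 barcodes.

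Between diets, 1 Serpina1 copy stood far apart and the other 4 differed little. Serpina1e, the most abundant copy in chow, stood at 13688 CPM in chow (95% counting interval 13655 to 13722) and, in the NASH library, at 2719 (2698 to 2741). The log2 ratio was -2.33 (-2.34 to -2.32), which is 5.03-fold lower. It was the 11th most abundant of all genes in chow hepatocytes and the 39th in the NASH library, and its ratio ranked 27 from the lowest of the 10614 genes. Serpina1a stood at 3855 and 3069 CPM, a log2 ratio of -0.33. The other copies lay near the median gene: Serpina1b stood at 3189 and 3436 CPM (log2 ratio 0.11), Serpina1c at 6565 and 6923 CPM (0.08), and Serpina1d at 1930 and 1975 CPM (0.03). The signs of these 3 ratios changed in 2, 2 and 3 of 13 alternative settings.

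Summed, Serpina1a to Serpina1d stood at 15541 CPM in chow and 15404 CPM in the NASH library, a log2 ratio of -0.01, whose sign changed in 4 of those settings. With Serpina1e included, the family stood at 29229 and 18123 CPM, a log2 ratio of -0.69. Serpina1e made up 46.8% of the family's UMIs in chow (642814 of 1372610), and 61674 of 411078 in the NASH library, while Serpina1c made up 22.5% and 38.2%. In number of molecules the family filled 2.92% of all hepatocyte UMIs in chow and 1.81% in the NASH library.

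Among the Serpina3 genes, Serpina3n was several-fold lower in the NASH library and the abundant Serpina3k differed little. Serpina3k stood at 12565 CPM in chow and 10542 CPM in the NASH library (log2 ratio -0.25). Serpina3m stood at 372 and 231 CPM (-0.68). Serpina3n stood at 1270 CPM in chow (1259 to 1280) and, in the NASH library, at 303 (296 to 311). Its log2 ratio of -2.05, 4.13-fold lower, ranked 33 from the lowest. With cells limited to at most 20% mitochondrial UMIs, the ratios were -0.85 for Serpina3k, -1.18 for Serpina3m and -2.80 for Serpina3n. That setting also named shallow droplets as hepatocyte-like, with median UMIs of 980 in chow and 2869 in the NASH library. Without that limit, Serpina3k held 88.4% of the UMIs of these 3 genes in chow and 95.2% in the NASH library. Serpina3n held 8.94% and 2.74%.

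The hormone carriers were scarce. Serpina6 stood at 46.5 CPM in chow (44.6 to 48.5) and, in the NASH library, at 76.4 (72.8 to 80.1), higher by a log2 ratio of 0.66. Serpina7 stood at 66.8 CPM in chow (64.5 to 69.2) and, in the NASH library, at 63.3 (60.1 to 66.7), a log2 ratio of -0.07 whose counting interval, -0.17 to 0.01, includes 0; it was 0.67 with at most 20% mitochondrial UMIs.

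**Figure D1:**
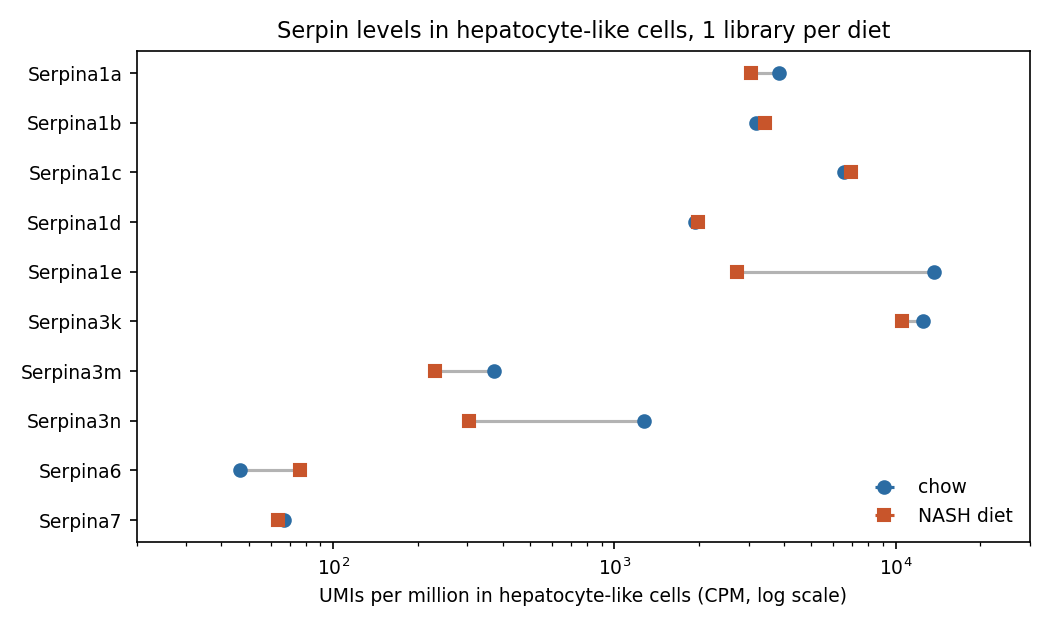
Level of each of the 10 serpin genes in hepatocyte-like cells (CPM, log axis), chow as circles and NASH diet as squares, 1 library each, joined by a line; 95% counting intervals are mostly narrower than the symbols. Serpina1e (13688 and 2719 CPM) and Serpina3n (1270 and 303 CPM) are the widest pairs.

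Of the 10 members, 2 were at least 2-fold lower in the NASH library, Serpina1e and Serpina3n, where 1.25% of all genes tested were. None was at least 2-fold higher, a count of 0 of 10, where 1.56% of all genes were. Of the 10, 8 lay below the median gene, where 50% do by definition. Some of the 8 lay close to it: relative to the median, Serpina1c was at -0.02, Serpina1d at -0.06 and Serpina7 at -0.16. Serpina1b, at 0.02, lay as close on the other side. The median log2 ratio of the members was -0.16 against 0.09 over all genes.

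Serpina1e and Serpina3n stood beside a wide difference in acute phase genes. Of 12 acute phase reference genes, 12 were at least 2-fold lower in the NASH library, with a median log2 ratio of -3.48. The widest were Saa2 (17824 and 284 CPM, log2 ratio -5.94), Saa3 (-5.33), Saa1 (-4.54) and Orm2 (-4.34). Of the secreted reference genes, 0 of 6 (Alb, Ttr, Apoa1, Apoc3, Apoh and Rbp4) were 2-fold apart, with a median of 0.30. In chow, Saa1 and Saa2 stood at 15895 and 17824 CPM, beside 25295 CPM for Alb. With 1 chow library it cannot be told whether this acute phase level is usual for chow-fed mice. The part of the acute phase genes in the serpin differences was not tested.

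Other genes of the pathway are given as counts. Over all genes tested, 1.25% were at least 2-fold lower in the NASH library and 1.56% at least 2-fold higher. Of 15 other liver serpins, 12 had enough UMIs, and 1 was 2-fold apart: Serpina10, which encodes the protein Z-dependent inhibitor of clotting factor X, stood at 521 and 142 CPM (log2 ratio -1.84). Of 8 other Serpina3 paralogs, 7 were in the tables and 0 had 50 UMIs. Of 10 proteases that serpins of this clade can meet, 7 had enough UMIs and 1 was 2-fold apart: Prtn3, proteinase 3, at 61.3 and 4.28 CPM (-2.84). Elane, neutrophil elastase, was at 0.62 CPM in both libraries, and Ctsg, cathepsin G, at 0 UMIs.

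Of 12 regulators of hepatocyte serpins, among them Hnf4a, Cebpb, Stat3 and Il6ra, 0 were 2-fold apart and the median log2 ratio was -0.20. Osmr, the oncostatin M receptor, stood at 5.26 and 0.66 CPM (247 and 15 UMIs); its log2 ratio of -0.86 stays above the 2-fold limit because of the added 5 CPM. Of 15 genes for folding, export and disposal of alpha1-antitrypsin, 0 were 2-fold apart, with a median of -0.03. Derl3, a protein of endoplasmic reticulum disposal, stood at 20.2 and 8.77 CPM and likewise misses the limit, at -0.87, through the added 5 CPM. The widest of the 15 was Calr, which stood at 1218 and 623 CPM (-0.96), just short of the limit. Of 14 genes for the handling of glucocorticoid and thyroid hormones, 2 were at least 2-fold higher in the NASH library: Akr1d1, a steroid 5-beta-reductase, at 54.9 and 137 CPM (1.25), and Thrsp, a thyroid hormone-responsive lipogenic gene, at 98.3 and 240 CPM (1.25). None of the 14 was 2-fold lower, and the lowest ratio was that of Tat, at 1023 and 521 CPM (-0.97). These lists are described by counts only.

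Liver lobules are zoned: hepatocytes around the portal tract and around the central vein carry different enzymes. The hepatocyte-like cells with at least 5000 UMIs (1845 in chow, 1053 in the NASH library) were split within each library into 3 zone groups of equal size (periportal, middle and pericentral) by a score of 8 pericentral minus 8 periportal genes. Genes kept out of the score followed it: the log2 ratio of the pericentral over the periportal group was 4.51 in chow and 6.69 in the NASH library for Glul, and -4.59 and -3.92 for Hal. The score is continuous, so the zone groups are ranges and not cell types; 195 of 615 cells of the chow periportal group and 109 of 351 of the NASH diet one lay within 0.1 SD of a boundary.

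The protease inhibitors leaned to the periportal side and the hormone carriers to the pericentral side, in both libraries. Serpina7 had the steepest gradient of the 10. In chow it stood at 1.58 CPM in the periportal group, 4.30 in the middle and 191 in the pericentral group, and in the NASH library at 3.07, 9.45 and 156 CPM. The log2 ratios of the pericentral over the periportal group were 4.90 and 4.31. With every cell thinned to 5000 UMIs, Serpina7 was seen in 42.8% of chow pericentral cells (exact binomial 95% interval 38.8 to 46.8) and 0.81% of periportal cells (0.26 to 1.89), and in 36.8% and 1.14% of those of the NASH library. Without thinning, 25.7% of all chow hepatocyte-like cells and 4 of 66 chow endothelial-like cells (median 3774 UMIs) had a Serpina7 UMI.

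Serpina6 had the same direction with a smaller ratio. It stood at 22.4, 29.5 and 88.0 CPM from the periportal to the pericentral group in chow and at 49.3, 43.3 and 126 CPM in the NASH library, log2 ratios of 1.76 and 1.27. With at most 20% mitochondrial UMIs, the ratio in the NASH library was 1.88 for Serpina6 and 5.25 for Serpina7.

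Serpina1e had the steepest periportal lean of the inhibitors. In chow it stood at 15957 CPM in the periportal group, 17126 in the middle and 8297 in the pericentral group, a log2 ratio of -0.94. In the NASH library it stood at 3870, 3793 and 987 CPM, a ratio of -1.97, 3.91-fold, which was -2.94 with at most 20% mitochondrial UMIs. In thinned cells its share of the family's UMIs was 47.9%, 51.3% and 38.7% in chow and 17.7%, 17.8% and 7.69% in the NASH library. The other Serpina1 copies had log2 ratios of -0.30 (Serpina1c) to -0.58 (Serpina1d) in chow and -0.50 (Serpina1a) to -0.84 (Serpina1d) in the NASH library.

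**Figure D2:**
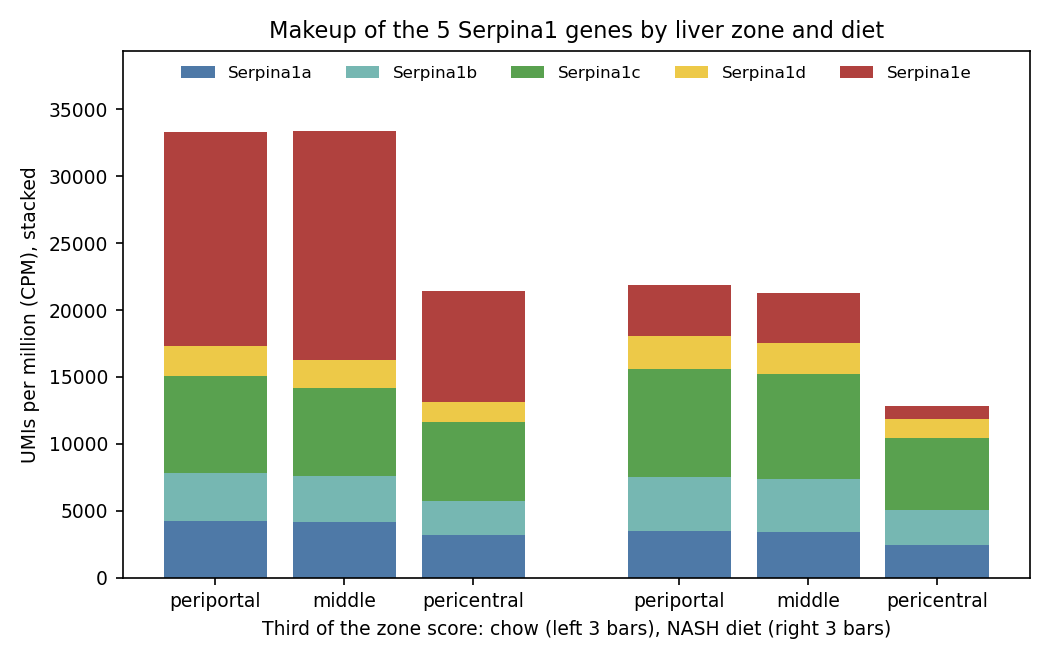
Level of the 5 Serpina1 genes (CPM, stacked) in the periportal, middle and pericentral groups of hepatocyte-like cells, chow in the left bars and NASH diet in the right bars, 1 library each. Serpina1e is 15957 of the chow periportal bar and 987 of the NASH diet pericentral bar.

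The Serpina3 genes leaned the same way to unlike degrees. Serpina3k was near flat in chow, at 13118, 12146 and 12646 CPM from the periportal to the pericentral group (-0.05). In the NASH library it stood at 11785, 10801 and 9538 CPM (-0.31). In thinned cells its 10th percentile, in the same order, was 48, 12.4 and 40.4 UMIs in chow. It was 40, 6 and 10 UMIs in the NASH library. The zone groups include cells of the clusters low in Serpina3k that are described below. Serpina3m had log2 ratios of -0.32 and -0.54. Serpina3n stood at 1421 and 978 CPM in chow (-0.54) and at 383 and 187 CPM in the NASH library (-1.01).

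In each library 2 of 10 members, Serpina6 and Serpina7, were higher in the pericentral group, where 63% of the genes tested in chow and 75.7% of those in the NASH library were. The median log2 ratio over members was -0.36 in chow and -0.56 in the NASH library, against 0.07 and 0.18 over all genes tested. Within zone groups, the diet ratio of Serpina1e was -2.04 in the periportal, -2.17 in the middle and -3.07 in the pericentral group, and that of Serpina3n was -1.88, -1.93 and -2.36. The diet difference of both was thus at least 2-fold in every group and widest in the pericentral group. The groups were cut within each library, so a group need not cover the same part of the lobule in both libraries.

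**Figure D3:**
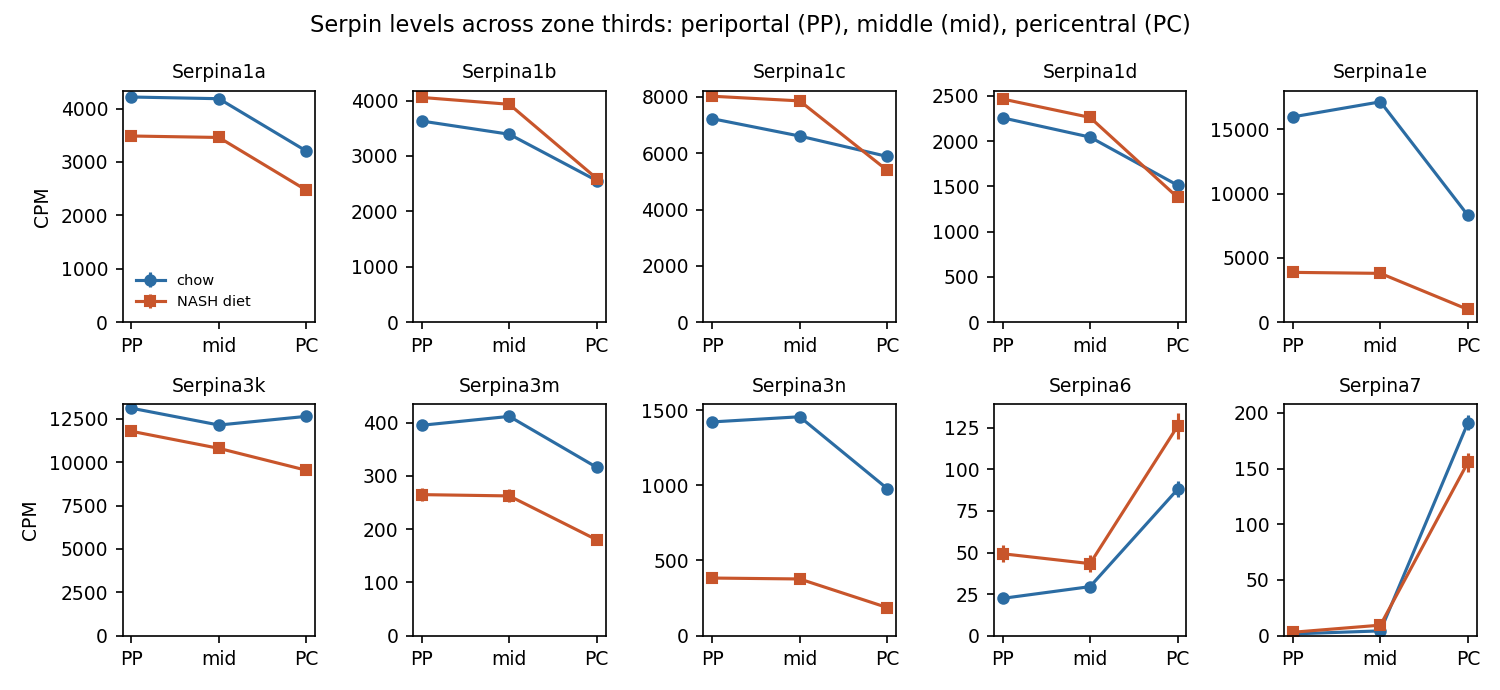
Level (CPM, axes from 0) of each of the 10 genes in the periportal (PP), middle (mid) and pericentral (PC) groups of hepatocyte-like cells, chow as circles and NASH diet as squares, with 95% counting intervals. Serpina6 and Serpina7 are highest in the pericentral group (Serpina7 at 191 CPM in chow, against 1.58), and Serpina1e is lowest there (987 CPM in the NASH library, against 3870).

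Between single hepatocytes, spread was measured in cells thinned to 5000 UMIs, as a coefficient of variation (CV) with counting noise taken off. In chow the CV was 0.31 for Serpina1a, 0.30 for Serpina1b, 0.34 for Serpina1c, 0.35 for Serpina1d and 0.47 for Serpina1e, and in the NASH library it was 0.42, 0.45, 0.45, 0.45 and 1.01. The CV of Serpina3k was 0.31 and 0.46, that of Serpina3m 0.29 and 0.49, and that of Serpina3n 0.50 and 0.76. Serpina6 had 0.83 and 0.76, and Serpina7, nearly limited to the pericentral cells, 2.21 and 2.32. A CV above 0.5 was found for 3 of 10 members in chow (Serpina3n, at 0.5002, Serpina6 and Serpina7) and for those and Serpina1e in the NASH library, 4 of 10. With at most 20% mitochondrial UMIs it was found for 10 of 10 in the NASH library. Over all genes with at least 50 thinned UMIs the shares were 40.9% and 52%, and over genes with a mean of at least 1 thinned UMI they were 41% and 51.4%.

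Serpina1e was the most uneven Serpina1 copy, above all in the NASH library. In chow a thinned cell held a median of 68 Serpina1e UMIs (10th to 90th percentile 22 to 107) and 1845 of 1845 cells held at least 1. In the NASH library the median was 9 (0 to 35), 942 of 1053 cells held at least 1, and 34.4% of cells held under 5, against 1.08% in chow. Cells with no Serpina1e UMI made up 2.28% of the periportal and 25.6% of the pericentral group of the NASH library. As a measure of background, endothelial-like cells of that library, at a median of 5381 UMIs without thinning, had a Serpina1e UMI in 35.8% and a summed level of 74.2 CPM.

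Serpina1c had overlapping ranges. Its median was 31 UMIs (16 to 48) in chow and 36 (12 to 56.8) in the NASH library. The leading copy in a cell differed between libraries: Serpina1e had the most UMIs of the 5 copies in 85.3% of chow cells and 9.02% of NASH diet cells, and Serpina1c in 14.2% and 84.6%.

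**Figure D4:**
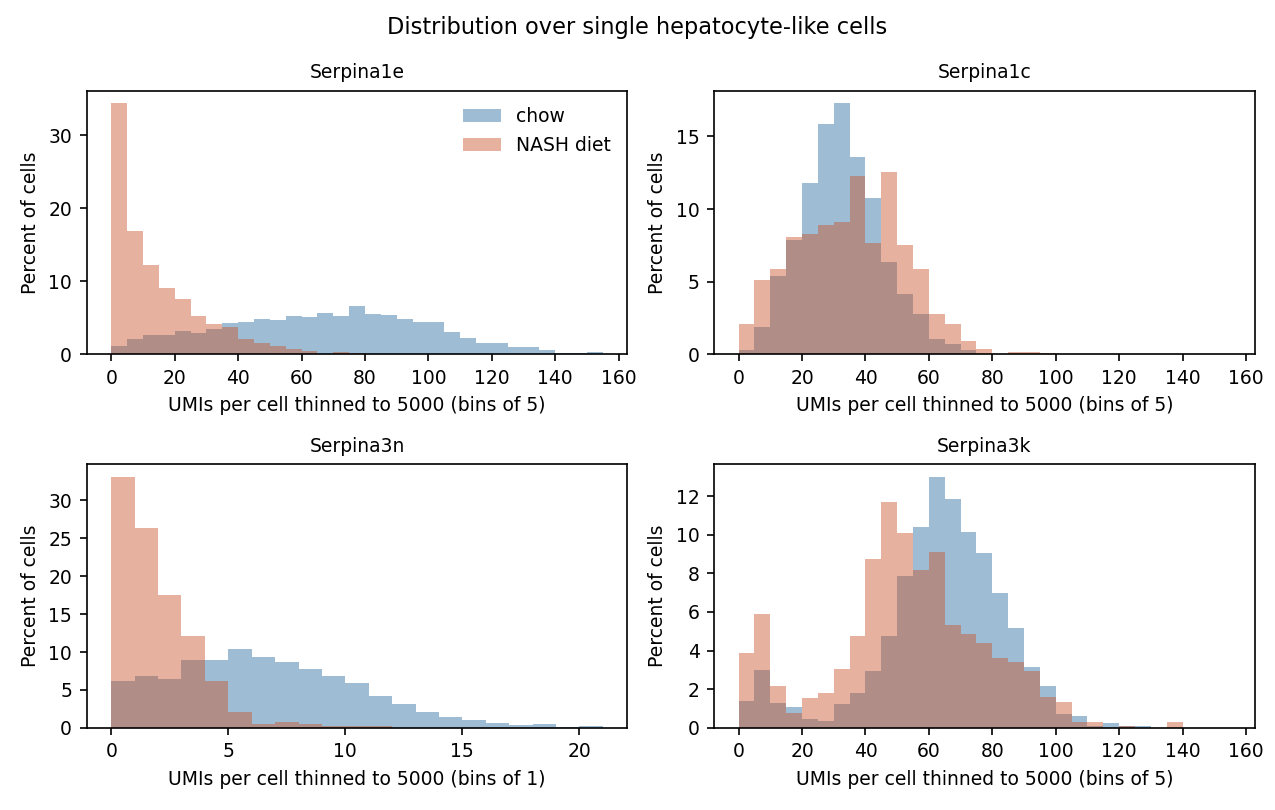
Share of hepatocyte-like cells (percent) by UMIs per cell after thinning to 5000 UMIs, for Serpina1e, Serpina1c, Serpina3n and Serpina3k, chow in blue (1845 cells) and NASH diet in orange (1053 cells); the last bin holds all higher values. Serpina1e and Serpina3n are shifted to low counts in the NASH library, and Serpina3k has a small separate group under 20 UMIs in both libraries.

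Within a library, the Serpina1 copies were correlated from cell to cell. Over thinned cells, the Spearman correlation between any 2 copies was 0.35 to 0.58 in chow (1845 cells) and 0.41 to 0.74 in the NASH library (1053 cells). Between a Serpina1 copy and Serpina3k it was -0.03 to 0.12 and 0.08 to 0.30. Serpina1e was the copy that followed Serpina3n most, at 0.36 in chow and, with Serpina1d, at 0.27 in the NASH library. The cells of a library share its background RNA, and near-identical copies can share reads. The part of these, and of zone, in the correlations was not tested.

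Cells were also ranked within each library by the summed level of Saa1, Saa2, Saa3, Orm1 and Orm2 and cut into 3 groups of equal size. From the lowest to the highest group, Serpina3n went from 895 to 1495 CPM in chow (log2 ratio 0.74) and from 211 to 410 CPM in the NASH library (0.94). Serpina1e went from 10979 to 15543 CPM (0.50) and from 1945 to 3339 CPM (0.78). The other 4 copies summed had ratios of -0.02 and 0.16, and Serpina3k -0.04 and 0.22. Serpina3m had ratios of 0.53 and 0.25. The hormone carriers went the other way, Serpina7 with -1.12 and -1.38 and Serpina6 with -0.86 in both libraries. Zone moved with this ranking, with a Spearman correlation of -0.21 between the zone score and the acute phase sum in chow and -0.28 in the NASH library, and its part in these values was not tested.

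Some hepatocyte-like clusters held little Serpina3k beside much Serpina1 RNA. Cluster 5 (297 chow cells, median 5041 UMIs) stood at 2611 CPM of Serpina3k and 169 CPM of Serpina3n, and cluster 6 (144 NASH diet cells, median 9156 UMIs) at 2040 and 35.4 CPM. The Serpina1 sum was 21014 CPM in cluster 5 and 16874 CPM in cluster 6. In clusters 0, 1, 3 and 7 of chow Serpina3k was 13021 to 14362 CPM and the Serpina1 sum 21640 to 34817 CPM. In clusters 11 and 12 of the NASH library Serpina3k was 10010 and 12600 CPM and the Serpina1 sum 13443 and 22269 CPM.

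The same clusters stood apart in mitochondrial and nuclear RNA and in other hepatocyte genes. Their median mitochondrial share was 2.15% and 3.73%, against 17.8% to 24.6% in clusters 0, 1, 3, 7, 11 and 12. Malat1, a nuclear RNA, was at 4.23 and 31.6 CPM against 772 to 1923 CPM. Alb was at 4357 and 6843 CPM, against 10986 to 54393 CPM in those clusters. Apob was at 218 and 116 CPM (2053 to 2953). Fgb was at 2190 CPM in cluster 5, against 7644 to 19790 CPM in clusters 0, 1, 3 and 7 of chow. It was at 663 CPM in cluster 6, against 2194 and 4298 CPM in clusters 11 and 12 of the NASH library. Fabp1 was higher, at 20873 and 35270 CPM (1270 to 11707). Apoa1 stood at 4775 CPM in cluster 5 (6182 to 8277 in clusters 0, 1, 3 and 7) and 7749 in cluster 6 (5242 and 7774 in clusters 11 and 12). Ttr stood at 5985 CPM in cluster 5 (3651 to 5515) and 12170 in cluster 6 (5197 and 7025), against the same clusters. Cluster 1, with a lower median of 3602 UMIs, had 14362 CPM of Serpina3k. The part of these measures in the Serpina3k level was not tested. Cluster 14 of the NASH library (73 cells) was low in both families, at 5826 CPM for the Serpina1 sum and 1601 CPM for Serpina3k, and held 46691 CPM of Malat1. Thinned cells with under 20 Serpina3k UMIs numbered 125 of 1845 in chow, 123 of them in cluster 5, and 134 of 1053 in the NASH library, 126 of them in clusters 6 and 14, a limit chosen after the values were seen. Without the hepatocyte clusters of a median under 10000 UMIs, the diet ratio was -0.68 for the Serpina1 sum and -1.98 for Serpina3n.

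**Figure D5:**
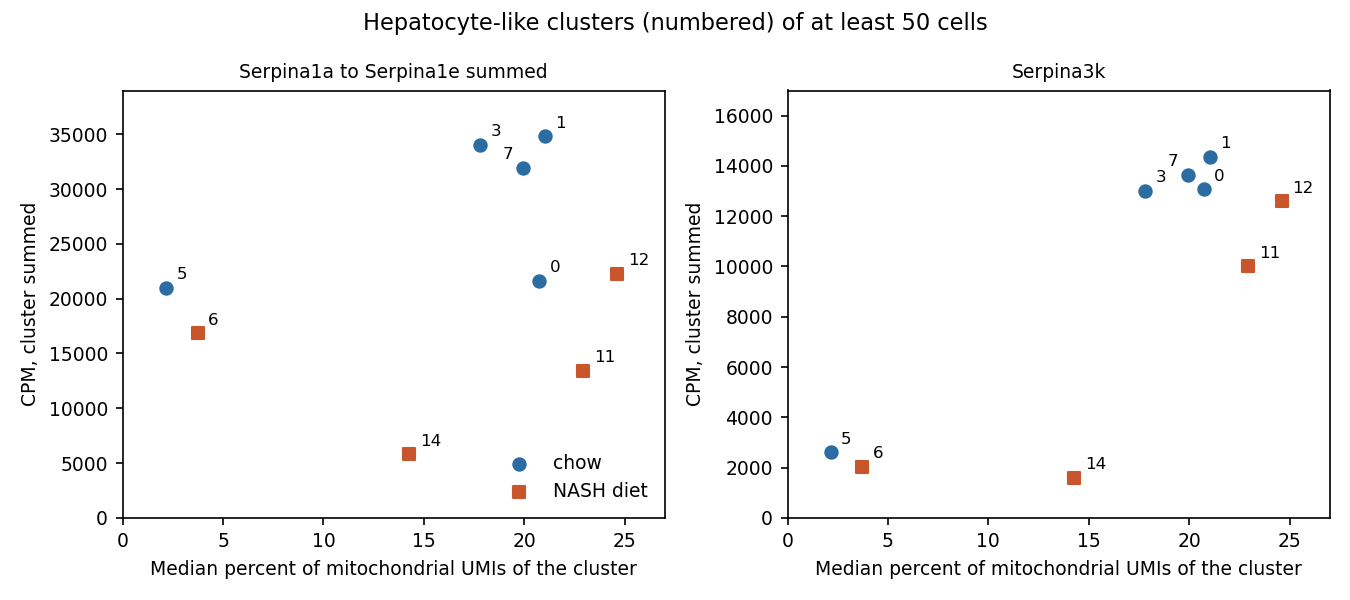
Summed level (CPM) of the 5 Serpina1 genes (left) and of Serpina3k (right) in hepatocyte-like clusters of at least 50 cells, numbered, against the cluster's median percent of mitochondrial UMIs; chow as circles, NASH diet as squares. Clusters 5 and 6, at 2.15% and 3.73%, have 2611 and 2040 CPM of Serpina3k but 21014 and 16874 CPM of Serpina1.

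Droplets too shallow to be named, 1748 in chow and 981 in the NASH library, showed a like contrast. Their Serpina1 sum was 86.8% of the hepatocyte level in chow and 58.1% in the NASH library, while Serpina3k was 41.2% and 21.2% and Serpina3n 39.9% and 22.4%. The secreted reference genes summed were at 69.7% and 47.0%. What these droplets hold was not tested.

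Outside hepatocytes, the members were seen at low levels in the other main classes. Summed over the 10, they stood at 9.15% of the hepatocyte level in chow endothelial-like cells, 5.52% in mononuclear phagocyte-like cells and 4.07% in mesenchymal-like cells, and at 3.89%, 6.56% and 2.31% in the NASH library. The secreted reference genes, which these cells should lack, were at 8.85%, 4.41% and 3.90%, and at 3.85%, 6.05% and 2.26%. The part of free RNA in the levels of the members was not tested. Serpina6 was at 0 UMIs in endothelial-like cells of both libraries, where 3 counts would be 11.4 and 8.57 CPM.

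Over the 6 zone-by-diet groups, the genes whose level was most like that of a member were listed among 1091 genes with a mean of at least 100 CPM, by Pearson's r of log2 levels over 6 groups that share 2 libraries. Nearest to Serpina3n were Itih4 (0.999), Fga (0.998) and Itih3 (0.998), genes of acute phase plasma proteins. Nearest to the Serpina1 sum were Hc (0.994), complement component C5, Apom (0.992) and Ambp (0.986). Nearest to Serpina3k were Aldh1l1 (0.994), Cbs (0.975) and Atp2a2 (0.973). Nearest to Serpina6 were Igfbp4 (0.982), Cpox (0.978) and Chp1 (0.977), and nearest to Serpina7 were Mgst1 (0.993), Apoc4 (0.992) and Cyp2c37 (0.981). With 6 groups such values are a description only.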

How the data were processed

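The deposited tables read were the own matrix of each library and a merged matrix, which held 86.4% of the chow UMIs and served as an alternative. They hold raw UMI counts per gene and barcode, made by the authors with Cell Ranger 3.0.2 per the file headers, while the submitters' processing notes name Cell Ranger 3.1.0, Seurat and mm10. Columns matched to no sample numbered 0. Promoter sequences came from RefSeq (GRCm38.p6), coding sequences from GENCODE M21, which held 99.9% of the files' gene IDs.

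Barcodes were kept with at least 200 genes, 500 UMIs and at most 30% mitochondrial UMIs. Scrublet marked 0 doublets, so the highest scores, 0.8% per 1000 barcodes, were removed (285 and 64). Scanpy 1.11.5 clustered 4041 and 2305 cells (2000 variable genes, 30 components, 15 neighbours, Leiden resolution 1.0) without the members. Clusters were named by markers: a mean log2 fold of 1, 3 markers in 10% of cells. After clusters were seen, other classes were required to have a hepatocyte marker log2 fold of at most -1, and hepatocyte clusters under 1 in 3 of their library's median UMIs were left unnamed. Counts were summed over cells, scaled to CPM (counts per 1000000) and compared as log2 ratios with 5 CPM added; no test was run, because each diet has 1 library. Intervals are exact at 95% (Poisson, Clopper-Pearson) and cover counting error only. The sums, ratios and CVs were tested on simulated data. All 10 members were named; from the other lists, at most 4 genes that were 2-fold apart, by size, and from the search for like genes the 3 nearest. Elane, Ctsg, Osmr, Derl3, Malat1 and the other genes named outside that rule were chosen after their values were seen. The members and lists were chosen with earlier results of these data known. The result for 1 listed gene is not reported here.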

Additional observations from a re-analysis of the deposited data

How the results depend on the processing

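The diet ratios of the Serpina1 sum and Serpina3n kept their sign under every alternative. A count has no sign to reverse, and some counts moved, as given below. The log2 diet ratio of the Serpina1 sum, -0.69 in the text, was -0.75 with at most 50% mitochondrial UMIs, -1.01 with at most 20%, -0.68 with at least 500 genes and 1000 UMIs, -0.71 without doublet removal, -0.67 with a marker gate, -0.67 in the merged matrix, -0.63 scaled without mitochondrial UMIs, -0.84 with median-of-ratios scaling, -0.67 as a mean over cells, -0.68 in cells of at least 5000 UMIs and -0.68 without clusters under a median of 10000 UMIs, a setting added after the data were seen. That of Serpina3n, -2.05, was -2.15 with at most 50% and -2.80 with at most 20% mitochondrial UMIs, -1.99 without mitochondrial UMIs, -2.20 with median-of-ratios scaling, -1.98 as a mean over cells, -2.00 with 20 CPM added and -1.98 without those clusters. At a 1.5-fold difference 1 member, Serpina6, was higher. With at most 50% mitochondrial UMIs, the hepatocyte-like cells were 2309 in chow (median 22088 UMIs) and 3869 in the NASH library (median 1493). That setting thus took in many shallow droplets of the NASH library. With at most 20% mitochondrial UMIs, 10 members had a CV above 0.5 in the NASH diet library; its hepatocyte-like cells were 3178 in chow (median 980 UMIs) and 762 in the other library (median 2869). Under it Serpina3m passed 2-fold, at -1.18, Serpina3k was at -0.85, and the pericentral over periportal ratios of the NASH library were -2.94 for Serpina1e, 1.88 for Serpina6 and 5.25 for Serpina7. No zone ratio of a member changed sign in 11 alternatives. The CV count in chow fell to 2 in some settings, since Serpina3n lay at the threshold. The diet ratios of Serpina1b, Serpina1c, Serpina1d, Serpina7 and the Serpina1a to Serpina1d sum changed sign in 2, 2, 3, 3 and 4 of 13 alternatives, so no direction is given for them. The median of all genes was 0.09 as scaled in the text, 0.14 without mitochondrial UMIs and 0.13 as a mean over cells; relative to it Serpina1e was at -2.42, -2.41 and -2.46. The cause of these shifts was not tested. No paired analysis was possible because each diet has 1 library. The limits are 1 library per diet, unknown numbers of mice, reads shared by Serpina1 copies, and hepatocytes that mostly fell into different clusters in each library. The libraries also differed before filtering, with a median mitochondrial share over all barcodes of 20.7% in chow and 34.3% in the NASH library. The filters passed 4326 of 7359 chow barcodes and 2369 of 5881 NASH diet barcodes, and this difference cannot be told apart from diet. A further limit is the high level of acute phase genes in the only chow library (Saa2 at 17824 CPM). Levels of a few CPM, such as periportal Serpina7, rest on 22 to 26 UMIs, and the part of free RNA in them was not tested.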
